A study of Mus musculus with 4 samples.

Results

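Oxidative phosphorylation is the process by which mitochondria pass electrons from NADH and succinate to oxygen and use the energy released to make ATP. Complex I (NADH dehydrogenase) and complex II (succinate dehydrogenase) feed electrons into ubiquinone, complex III (cytochrome bc1) passes them to cytochrome c, and complex IV (cytochrome c oxidase) hands them to oxygen. Complexes I, III and IV pump protons across the inner membrane, and complex V (ATP synthase) makes ATP as the protons return. Neurons depend on this pathway for the ATP that ion pumping and synaptic transmission consume. Most of the subunits are encoded in the nucleus, and these are the ones described here.

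The members are the genes whose platform symbol begins with Nduf, Uqcr or Atp5, or with Cox followed by 4 to 8, together with Sdha, Sdhb, Sdhc, Sdhd, Cyc1 and Cycs. They number 73 of the 8251 genes that have a probe set with a single symbol, and 101 of 12488 probe sets report them. By symbol, 31 belong with complex I, 4 with complex II, 8 with complex III, 15 with complex IV and 14 with complex V, and the remaining gene is Cycs, cytochrome c itself. Of the 73, 70 encode subunits or cytochrome c. The other 3 are Ndufaf1 and Ndufaf4, which help to assemble complex I, and Cox7a2l, which helps to join complexes III and IV into supercomplexes. Each gene is described by the probe set with its highest mean log2 signal.

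The 4 samples held total RNA of hippocampal area CA1 taken from young male C57BL/6J mice, a common inbred strain. The mice of all 4 samples were controls, handled by an experimenter and given no other treatment. RNA was taken 1, 2, 4 or 6 h after treated mice, which are not analysed here, had received their last shock. Each hour had 1 sample on 1 array, so differences between hours are without replicates, and how many mice each sample held is not stated. A signal is the authors' scaled intensity of a probe set on a linear scale, and it can be set beside the same probe set on another array but not beside another gene. In tissue RNA, fewer cells of a type and less RNA per cell cannot be told apart.

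The 2 h array stood apart from the other 3 in RNA quality controls. For Gapdh the ratio of signal at the 3' end to that at the 5' end was 1.08 at 2 h, against 3.62 to 4.10 on the other arrays, and that of beta-actin was 1.72 against 2.27 to 2.93. Its bright end was also compressed, with a 99th percentile of signal of 10134.5 at 2 h against 10769 to 11149. The tissue's markers gave signal, with all 5 interneuron markers, both measured CA1 pyramidal markers and 4 of 5 neuronal markers bright enough to test. The neuronal marker too dim to test was Camk2a. Of 5 listed CA1 pyramidal markers, 2 were on the array. As 3 of 5 measured dentate gyrus markers and 4 of 5 microglia markers were also bright enough, these signals do not single out CA1. The summed signal was above the range of the other arrays at 2 h for markers of neurons, with 29667 against 24670.5 to 26404, of astrocytes, with 16680.2 against 13129 to 14507, and of microglia, with 4447 against 3321 to 3868.5. The CA3 sum, 1064 against 781.7 to 963, was above it too. For CA1 pyramidal markers the 2 h sum was below the range of the other arrays, with 2500 against 2777.8 to 3247.8. It was also below that range for markers of interneurons, with 20149.8 against 23669 to 24377, and of dentate gyrus, with 1928 against 2269.7 to 2410.4. The same held for endothelium, with 884 against 1075 to 1304, and narrowly for oligodendrocytes, with 19889.7 against 19942.8 to 25969. Choroid plexus markers summed to 1184 at 2 h against 397 to 848. Single markers went against their sum, since Snap25 (neurons), Gfap (astrocytes), Csf1r (microglia) and Kl (choroid plexus) were lowest at 2 h. Of the 2 CA1 pyramidal markers only Wfs1 was lowest at 2 h, and Pou3f1 had 623 against 443 to 764. Also inside the range of the other arrays at 2 h were Gad1, Gad2 and Pvalb (interneurons). The same was true of Flt1 and Pecam1 (endothelium) and of Slc1a2 and Glul (astrocytes). Gfap had 1740 at 2 h against 2165 to 2523, while the brighter astrocyte marker Aldoc had 12280 against 8996 to 9831. Among oligodendrocyte markers Mbp, Mog and Mag were highest at 2 h and Mobp was lowest. Of the 2 tested choroid plexus markers only Ttr was high, with 892 at 2 h against 107.5 to 356. What these features contribute to the 2 h values below was not tested.

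Of the 73 genes, 65 passed the filter on dim probe sets, which asks for a geometric mean signal of at least 116.4 over the 4 arrays. They were 28 of 31 in complex I, all 4 in complex II, all 8 in complex III, 11 of 15 in complex IV, 13 of 14 in complex V, and Cycs. The mean signals of those that passed ran from 188 to 12130.3 in complex I, from 680.5 to 4928 in complex II, from 2314 to 12818 in complex III, from 290.5 to 22809.6 in complex IV and from 230.1 to 19386 in complex V. The median mean signal was 3426 over these members and 472 over all 7237 tested probe sets, and 50 of the 65 were among the brightest 2412 probe sets.

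The 8 genes below the filter had signals from 6.5 to 189. In complex I they were the accessory subunits Ndufa1, Ndufa12 and Ndufc2. In complex IV they were Cox5a and Cox8a, both subunits of the enzyme in most tissues, Cox6b2, the testis form of subunit 6b, and Cox7a1, the heart and muscle form of subunit 7a. In complex V the dim one was Atp5j2, a membrane subunit. Cox7a1 lay under the floor of 36.8, below which signals were set to the floor, on 3 of the 4 arrays, with signals of 16.8, 13.4, 6.5 and 51.4 at 1, 2, 4 and 6 h. A dim signal does not tell a weakly binding probe set from a scarce transcript.

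The members varied little over the 4 arrays. Of the 65, 53 stayed within a 1.5-fold range, which is 81.5%, against 46.4% of all tested probe sets and 68.6% of the brightest 2412. Without the 2 h array 61 of 65 stayed within that range, against 66.9% of all tested probe sets and 90.1% of the brightest 2412. The median SD of log2 signal over the 4 arrays was 0.18 for the members, against 0.28 for all tested probe sets and 0.21 for the brightest 2412. Over the 1, 4 and 6 h arrays alone the medians were 0.138 for the members, against 0.22 and 0.147. The brightest 10% of tested probe sets had a median signal of 4449. Their median SD was 0.195 over the 4 arrays and 0.125 over the 1, 4 and 6 h arrays. On the 1, 4 and 6 h arrays, steadiness was thus not particular to the members.

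Spread differed little between complexes. The median SD of log2 signal over 4 arrays was 0.17 in complex I, 0.14 in complex II, 0.23 in complex III, 0.20 in complex IV and 0.17 in complex V. Without the 2 h array it was 0.14, 0.16, 0.12, 0.13 and 0.12 in the same order, so that complex III had the highest median with the 2 h array and the lowest without it. Within a 1.5-fold range over all 4 arrays were 22 of 28 genes of complex I, 4 of 4 of complex II, 5 of 8 of complex III, 10 of 11 of complex IV and 11 of 13 of complex V. The plot of each gene over the 4 arrays shows these narrow bands and the few genes that leave them.

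**Figure D1:**
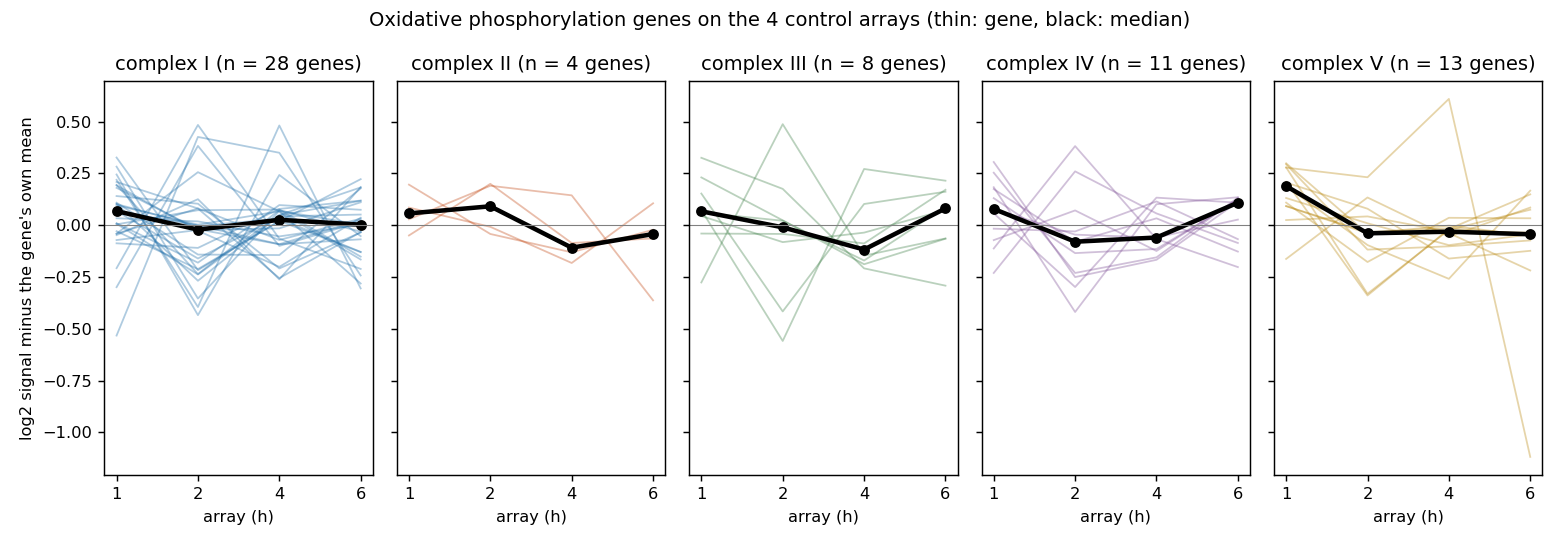
Log2 signal minus the gene's own mean (vertical axis) on the 1, 2, 4 and 6 h arrays (horizontal axis) for the genes of complexes I to V that passed the filter, in 1 panel per complex. Thin lines are genes and the black line is the median, which lies at 0.19 on the 1 h array in complex V and within 0.12 of 0 at every other point.

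No gene followed the hours in a way that passed a test. A log2 slope per hour was fitted with limma across the 4 arrays for all 7237 tested probe sets, and the background of calls was 0%. It called 0 of the 65 members (smallest adjusted p = 0.9996), with 1 at an unadjusted p under 0.05, a share of 1.54% against 1.17% upward and 1.53% downward over all tested probe sets. That gene was Uqcr11, a small subunit of complex III, with signals of 5448, 4910.2, 3764 and 3552 at 1, 2, 4 and 6 h. Its slope was -0.13 log2 per hour by limma (unadjusted p = 0.0355). The median slope over the members was -0.0061 log2 per hour. Without the 2 h array limma called 0 members and 32 probe sets in all.

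The 1 h array held the highest of the 4 signals for 32 of 65 members, or 49.2%, where this was so for 23.1% of all tested probe sets and 30% of the brightest 2412. It held the lowest for 6 members, or 9.23%, against 25.1% of all tested probe sets and 20% of the brightest 2412. The median log2 difference of the 1 h array from the mean of the other 3 was 0.12 over the members, -0.00084 over all tested probe sets and 0.05 over the brightest 2412. After quantile normalization the members' median was 0.06, and 25 of 65 were highest at 1 h, against 24.8% of all tested probe sets. Without the 2 h array the 1 h signal was the highest for 34 of 65, against 30.9% of all tested probe sets. The 1 h excess was most frequent in complex V, where 10 of 13 genes were highest at 1 h. The counts of genes highest at 1 h were 13 of 28 in complex I, 1 of 4 in complex II, 2 of 8 in complex III and 6 of 11 in complex IV.

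The 4 h and 6 h arrays took no like share of the highest signals. The 4 h signal was the highest for 7 of 65 members, against 23.2% of all tested probe sets and 22.8% of the brightest 2412, and the lowest for 20, against 22% and 21%. The 6 h signal was the highest for 14, against 24.5% and 19.8%, and the lowest for 15, against 20.9% and 18.2%.

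In complex V the 10 genes highest at 1 h covered both the catalytic head and the membrane part. Atp5a1, the alpha subunit of the catalytic head, had 11646, 10631, 10909 and 10545 at 1, 2, 4 and 6 h. Atp5o, the subunit that ties the head to the peripheral stalk, had 4969, 3924, 3935 and 3473. Atp5mpl, a small membrane subunit, had 5326.5, 4881, 4131 and 4240.2. The 4 arrays ranged over 1.10-fold in Atp5a1, 1.43-fold in Atp5o and 1.29-fold in Atp5mpl, with the 1 h array at the top in each. The other 7 were the gamma subunit Atp5c1, the delta subunit Atp5d, the epsilon subunit Atp5e, and Atp5j, Atp5k, Atp5l and Atp5md. The exceptions were Atp5g1 and Atp5g2, which encode the same c-ring protein with different import signals, and Atp5pb, subunit b of the peripheral stalk.

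The c-ring and stalk genes showed the steadiest and the least steady signals of complex V on their brightest probe sets. Atp5g2 had 637, 645, 613 and 611, a range of 1.06-fold, on a probe set whose name marks shared probes. Its second probe set, with a plain name but below the filter, was not steady, with 114, 78, 144 and 66. Atp5g1 had 216.5, 266, 233 and 257. Atp5pb had 255, 247, 321 and 97 and so ranged over 3.31-fold, with the 6 h array the low one. The brightest member of complex V, Atp5md, stayed within 1.10-fold with 20645, 18932, 19175 and 18791.

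At 2 h the members as a group lay close to the other arrays. Their median log2 difference between the 2 h array and the mean of the 1, 4 and 6 h arrays was -0.04, against -0.01 over all tested probe sets and -0.07 over the brightest 2412, and it turned to 0.01 after quantile normalization. Of the 65, 40 were lower at 2 h, or 61.5%, against 51.2% of all tested probe sets and 59% of the brightest 2412. With all 73 genes the median was also -0.04. Set against the 1 h array alone, the array on which members were most often highest, the median was -0.13. For that baseline it was -0.0032 over all tested probe sets and -0.098 over the brightest 2412.

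Single genes lay farther from 0 at 2 h than the median. The 2 h signal lay below all 3 others for 24 of 65 members, or 36.9%, against 32% of all tested probe sets and 40.8% of the brightest 2412. It lay above all 3 others for 12, or 18.5%, against 29.1% and 27.4%. Only Uqcrc2 was at least 1.5-fold lower than the mean of the other arrays, against 9.55% of all tested probe sets and 7.05% of the brightest 2412. Ndufv1 and Uqcrc1 were at least 1.5-fold higher, against 12.5% and 6.92%. After centring each array on its median, these counts were 4 lower and 2 higher, with no share of all tested probe sets given for that scaling. No member was 2-fold away, against 2.5% of tested probe sets lower and 4.59% higher by that much, or 0.829% and 1.91% of the brightest 2412.

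**Figure D2:**
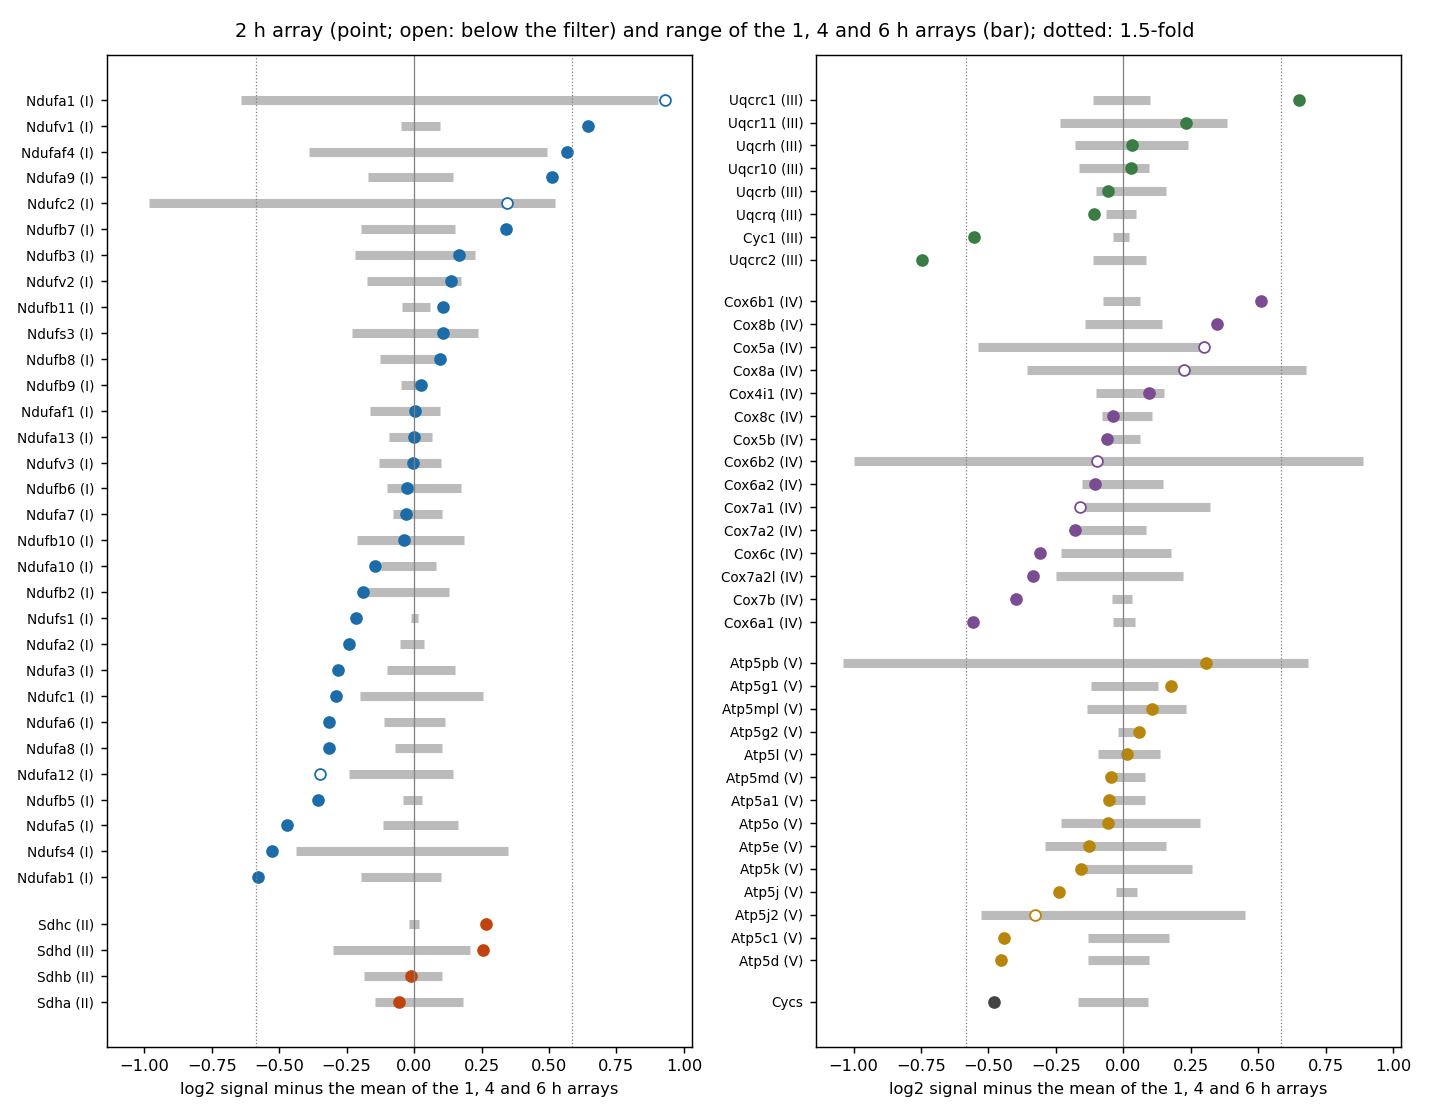
Log2 signal of the 2 h array minus the mean of the 1, 4 and 6 h arrays for all 73 genes (points, coloured by complex, open where the gene was below the filter), with the range of the 1, 4 and 6 h arrays as grey bars and dotted lines at 1.5-fold. Points run from -0.74 for Uqcrc2 to 0.93 for Ndufa1, and the points of Uqcrc2, Cyc1, Cox6a1, Uqcrc1 and Ndufv1 lie far outside their grey bars.

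The medians of the 5 complexes at 2 h were small and close to each other. The median log2 difference from the mean of the other arrays was -0.03 in complex I, 0.12 in complex II, -0.01 in complex III, -0.11 in complex IV and -0.05 in complex V. Those of complexes III and V turned to 0.04 and 0.03 after quantile normalization, that of complex I turned to 0.04 without the 1 h array, and that of complex III turned to 0.01 without the 6 h array. Genes of 1 complex share an array and are not replicates of it, so no test sets one complex against another. The middle 50% of genes ran from -0.28 to 0.11 in complex I, from -0.02 to 0.26 in complex II, from -0.22 to 0.08 in complex III, from -0.32 to 0.03 in complex IV and from -0.16 to 0.06 in complex V.

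Complex III held the widest contrast at 2 h, between its paired core proteins. Uqcrc1, core protein 1, had 2116, 3593, 2315 and 2452 at 1, 2, 4 and 6 h, a 2 h signal 1.57 times the geometric mean of the other 3. Uqcrc2, core protein 2, had 7017, 4529.8, 8050.5 and 7741, a 2 h signal 0.60 times that mean. Both proteins sit in the same complex in equal number, and Uqcrc1 was highest and Uqcrc2 lowest on the 2 h array. The probe set of Uqcrc2 has a name ending that marks probes shared with other transcripts, and that of Uqcrc1 does not.

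The electron carriers around complex III were also low at 2 h on their brightest probe sets. Cyc1, the cytochrome c1 that passes electrons to cytochrome c, had 14063, 9482, 13580.1 and 14149.9. Its second probe set had 3518, 4316, 4463 and 3660.4, so the 2 probe sets differed in direction, with log2 differences of -0.55 and 0.16. Cycs, the mobile carrier cytochrome c, had 774, 527, 653 and 783, a log2 difference of -0.48. Cycs and the brighter probe set of Cyc1 had their lowest signal at 2 h.

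Of the small subunits of complex III, Uqcrq, Uqcrb, Uqcr10 and Uqcrh stayed within a 1.5-fold range, and Uqcr11, described above, ranged over 1.53-fold. Uqcrq had 10828, 9922, 10242 and 11048. Uqcrb had 2245, 2242, 2172 and 2598.5. Uqcr10 and Uqcrh differed at 2 h by 0.03 on the log2 scale from the mean of the other arrays, inside the range of those arrays.

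In complex I the genes highest at 2 h were Ndufv1, Ndufaf4 and Ndufa9. Ndufv1, the flavoprotein that takes electrons from NADH, had 4054, 6544, 4474 and 4043.5, 1.56 times the geometric mean of the other arrays at 2 h. Its partner in the NADH-binding module, Ndufv2, had 4113, 4009, 3229 and 3641, with the 2 h array inside the range of the others. Ndufa9, an accessory subunit at the joint between the 2 arms of the complex, had 1717, 2754, 1971 and 2137.5. The assembly factor Ndufaf4 was dimmer, with 208.5, 405, 384 and 255, and its 4 h signal lay near that of 2 h.

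The genes of complex I lowest at 2 h were Ndufab1, Ndufs4 and Ndufa5. Ndufab1, the mitochondrial acyl carrier protein, had 3678, 2298, 3672 and 2993. Ndufs4, an accessory subunit whose loss in mice causes a Leigh-like encephalopathy, had 212, 139, 254.5 and 148, so that the 6 h array was nearly as low. Ndufa5 had 8060, 5185, 6953 and 6638. The 2 h array was the lowest for all 3 genes, and none was 1.5-fold from the mean of the others.

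The core subunits of complex I other than Ndufv1 were steadier. Ndufs1, an iron-sulfur subunit that receives electrons from the NADH-binding pair, had 1972, 1684, 1938 and 1950.5. The 1, 4 and 6 h signals of Ndufs1 had an SD of 0.01 on the log2 scale, and the 2 h signal was below them. Ndufs3 had 3851.5, 3525, 2792 and 3257. The narrowest ranges in complex I were those of the accessory subunits Ndufb9, with 5058, 5005.5, 4760.1 and 4951 (1.06-fold), and Ndufb11, with 2727, 2967.5, 2670.5 and 2868 (1.11-fold). Ndufa13, known also as GRIM-19, ranged over 1.12-fold.

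The remaining 16 tested genes of complex I, accessory subunits and the assembly factor Ndufaf1, lay between -0.36 for Ndufb5 and 0.34 for Ndufb7 at 2 h on the log2 scale. Ndufb5 had 12955, 10016, 12465 and 13086 and was the lowest at 2 h, as were Ndufa2, Ndufa3, Ndufa6, Ndufa8, Ndufa10 and Ndufc1. Ndufb7 had 3759, 4616, 4048 and 3180.5 and was the highest at 2 h. Ndufa7, Ndufaf1, Ndufb2, Ndufb3, Ndufb6, Ndufb8, Ndufb10 and Ndufv3 had their 2 h signal inside the range of the other arrays.

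Complex II, the enzyme shared by the citric acid cycle and the respiratory chain, had no gene past a 1.5-fold range. Sdha, its flavoprotein, had 776.5, 658, 619 and 668. Sdhb, its iron-sulfur subunit, had 5211, 4886, 4329.9 and 5286. The membrane anchors Sdhc and Sdhd were highest at 2 h, with 2672, 3175, 2605 and 2645.5 for Sdhc and 3081, 3446, 3337.5 and 2349 for Sdhd. The catalytic pair had its 2 h signal inside the range of the other arrays, and the anchor pair had it above.

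In complex IV the brightest member of all, Cox6a1, was the lowest at 2 h. Cox6a1, the form of subunit 6a found in most tissues, had 25552, 16836, 24141 and 24709.9, a 2 h signal 0.68 times the geometric mean of the others. Cox7b had 3539, 2766, 3729.9 and 3667. For both genes the 1, 4 and 6 h signals differed by at most 1.06-fold. Cox7a2l, the supercomplex factor, had 2513, 1710.5, 1812 and 2199.9 and was nearly as low at 4 h. Cox6c followed the same order, with 16706, 11947, 12587 and 15368.

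The highest at 2 h in complex IV were dim. Cox6b1, a subunit near the cytochrome c site, had 265, 374, 274 and 249. Cox8b, the heart and muscle form of subunit 8, had 339.7, 477, 414.5 and 375.5. The names of the probe sets of Cox6b1 and Cox8b mark shared or incomplete probes. The second probe set of Cox8b, below the filter, went the other way with 53.4, 22.5, 93.2 and 88.5, and over the mean of both probe sets the 2 h difference of Cox8b was -0.35, against 0.35 on the brighter one. Cox5b, with 7144, 6554, 6492 and 6893, and Cox8c, the testis form of subunit 8, with 1070.4, 1061, 1172.5 and 1034, ranged over 1.10-fold and 1.13-fold. Cox4i1, the regulatory subunit 4 form of most tissues, had 618, 683, 596 and 709 on its brighter probe set, whose name marks shared probes. Its second probe set, with a plain name and also past the filter, had 241.5, 254, 248 and 73. The log2 differences at 2 h were 0.09 and 0.64, and the second probe set was low at 6 h.

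Probe sets for tissue-restricted forms of complex IV gave signals in CA1. Cox6a2, the heart and muscle form of subunit 6a, had 661.5, 555, 599.8 and 537, above the filter on every array. Of other muscle genes, Ckm had 226, 159.5, 70.5 and 226 and Acta1 had 225, 154.5, 299.6 and 253, and Cox7a1, Myh6 and Mb were below the filter. The 7 muscle markers summed to 1443 at 2 h against 1486 to 1557 on the other arrays. They include the members Cox6a2, Cox7a1 and Cox8b, and most of the sum on each array came from Cox6a2 and Cox8b. The sum is therefore not separate from the members. For subunit 7a the common form Cox7a2 was bright, with 9897, 8235.5, 8350.4 and 9823, and the muscle form Cox7a1 was dim. For subunit 8 the form of most tissues, Cox8a, was below the filter, with 45.8, 68.5, 47 and 93.9, while the probe sets of Cox8b and Cox8c were above it. Binding strength varies between probe sets, so these signals rank neither the forms nor the muscle genes.

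In complex V the genes lowest at 2 h were Atp5d and Atp5c1, which form the central stalk of the catalytic head with Atp5e. Atp5d had 1804, 1234, 1541 and 1730 on its brightest probe set. The next 2 probe sets of Atp5d also had their lowest signal at 2 h, with log2 differences of -0.35 and -0.36, and the dimmest one past the filter, the only one of those 4 with a plain name, differed by 0.41. Atp5c1 had 8744, 5730.3, 7095 and 7589.9 on its brighter probe set and 4751, 4177.5, 3399.5 and 4534 on its second one, which differed by -0.0021 on the log2 scale at 2 h. Only the brighter probe set of Atp5c1 thus had its lowest signal at 2 h. Atp5j, a stalk subunit, with 4766, 3907, 4529.8 and 4523, and Atp5k, a membrane subunit, with 635, 477.5, 483 and 492, were also lowest at 2 h. Atp5e and Atp5l had their 2 h signal inside the range of the other arrays.

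Some second probe sets went another way at 2 h. More than 1 probe set was available for 21 of the 73 genes. Of 10 further probe sets that passed the filter, 5 had a 2 h difference of the opposite sign to that of the brightest one, for Atp5d, Atp5l, Cyc1, Ndufa3 and Ndufb2. Ndufb2 had 8584, 7218, 7206 and 9007 on the brighter and 5524, 6395.5, 4924 and 4815 on the dimmer, log2 differences of -0.19 and 0.33. Ndufa3 had differences of -0.28 and 0.17, and Atp5l had 0.01 and -0.08. The second probe set of Atp5l was dim, with signals from 99 to 158. No share of opposite signs over all genes is given here.

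The kind of probe set moved with the 2 h difference. Of the 65 genes, 17 were reported by a probe set whose name marks shared or incomplete probes, and their median log2 difference at 2 h was -0.19, with 13 of 17 lower. The other 48 had a median of -0.03, with 27 lower. Over all tested probe sets the medians were -0.07 for the 1393 so marked, of which 782 were lower, and -2.2e-05 for the remaining 5844. The members so marked include Uqcrc2, Cox6a1, Ndufa5, Cox6c, Atp5d and Atp5c1, which were lower at 2 h. The 4 so marked that were higher were Cox6b1, Cox8b, Cox4i1 and Atp5g2. All 13 members so marked among the brightest 2412 probe sets were lower at 2 h. Of all 453 probe sets so marked among those 2412, 285 were lower. The part of shared probes in these differences was not tested.

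Signal strength moved with the 2 h difference as well. Across the 65 genes, log2 level and 2 h difference had a Pearson correlation of -0.28 and a Spearman correlation of -0.27, against -0.10 and -0.11 across all 7237 tested probe sets. These describe points that share arrays. The median 2 h difference of tested probe sets was 0.09 among the dimmest 10% and -0.13 among the brightest 10%. The plot of difference against signal shows the members scattered around this trend on both sides.

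**Figure D3:**
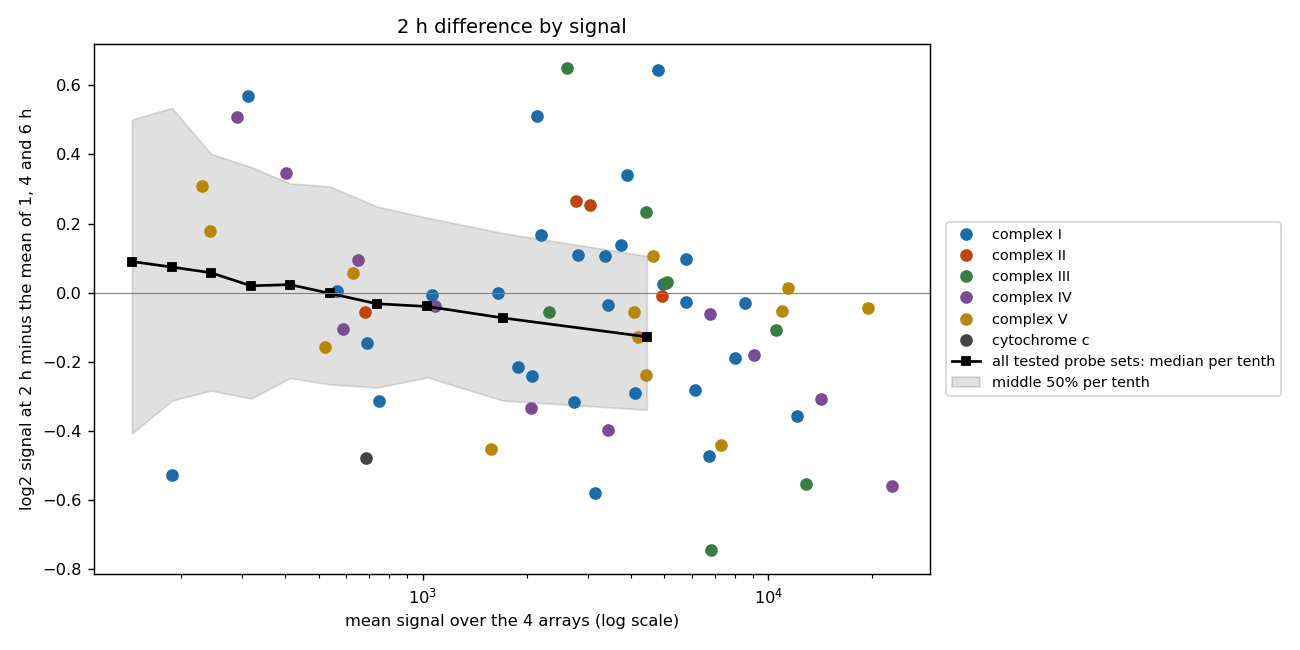
Log2 signal at 2 h minus the mean of 1, 4 and 6 h (vertical axis) against mean signal over the 4 arrays (horizontal log axis) for the 65 genes that passed the filter, coloured by complex. The black line and grey band give the median and the middle 50% of all tested probe sets in 10 bins of signal, falling from 0.09 to -0.13, and members lie on both sides of it.

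Start regions of some of these genes are shown because nuclear-encoded subunits are known to be driven by the factors NRF1, GABP (an ETS factor) and YY1, and because the 4 genes chosen hold such a motif and had a 2 h signal outside the range of the other arrays. The windows are RefSeq's on GRCm38.p6 and run from 250 bases before to 50 bases after the start. Of the 73 genes, 59 had a window, 64 windows in all. The NRF1 letters searched were GCGCA and GCGC with any 1 base between them, the ETS letters CCGGAAG and the YY1 letters AAGATGGC, each on both strands. Capitals mark the matches, 2 NRF1 and 1 ETS in Cox6a1 (low at 2 h), 2 NRF1 in Uqcrc1 (high), 1 YY1 in Ndufa9 (high) and 1 YY1 in Ndufs4 (low). No searched motifs overlap in them.
Cox6a1, chr5:115348909-115349208, minus strand: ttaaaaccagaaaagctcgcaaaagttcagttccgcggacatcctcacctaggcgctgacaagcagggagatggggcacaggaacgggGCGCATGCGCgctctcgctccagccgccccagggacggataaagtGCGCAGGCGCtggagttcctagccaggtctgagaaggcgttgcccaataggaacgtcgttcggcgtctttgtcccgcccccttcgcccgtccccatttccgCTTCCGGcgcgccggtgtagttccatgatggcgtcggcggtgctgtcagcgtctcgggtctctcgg
Uqcrc1, chr9:108936398-108936697, plus strand: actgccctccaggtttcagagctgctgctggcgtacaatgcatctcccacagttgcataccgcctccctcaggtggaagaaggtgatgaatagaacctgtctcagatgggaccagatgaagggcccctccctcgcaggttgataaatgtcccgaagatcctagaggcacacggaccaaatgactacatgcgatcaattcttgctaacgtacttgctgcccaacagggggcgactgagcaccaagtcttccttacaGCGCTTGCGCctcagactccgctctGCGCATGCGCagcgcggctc
Ndufa9, chr6:126849095-126849394, minus strand: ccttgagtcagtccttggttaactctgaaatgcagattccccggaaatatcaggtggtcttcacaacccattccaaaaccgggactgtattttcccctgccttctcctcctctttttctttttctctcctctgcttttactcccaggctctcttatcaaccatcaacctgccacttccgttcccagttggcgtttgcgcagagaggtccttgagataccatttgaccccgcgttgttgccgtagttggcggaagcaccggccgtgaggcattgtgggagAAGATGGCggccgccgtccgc
Ndufs4, chr13:114388045-114388344, minus strand: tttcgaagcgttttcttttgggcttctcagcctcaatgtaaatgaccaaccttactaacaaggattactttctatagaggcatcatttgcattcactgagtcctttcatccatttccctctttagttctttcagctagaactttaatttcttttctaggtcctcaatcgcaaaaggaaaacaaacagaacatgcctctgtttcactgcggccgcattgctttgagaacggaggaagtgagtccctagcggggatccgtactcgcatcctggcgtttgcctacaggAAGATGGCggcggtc

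Motif matches were more frequent in the members' windows than in all windows of that length, and they were found with both directions at 2 h. NRF1 letters were in 20.3% of the 64 member windows and 4.60% of all 32851 windows. ETS letters were in 25% and 8.86%, and YY1 letters in 12.5% and 2.75%. The TATA box letters TATAAA, searched in the same way, were in 10.9% and 13.6%. Among tested genes with a window, NRF1 letters were in 6 of 18 whose 2 h signal was the lowest of the 4, in 4 of 11 whose 2 h signal was the highest and in 2 of 22 of the rest. ETS letters were in 3 of 18, 3 of 11 and 9 of 22 in the same order, YY1 letters in 4, 1 and 2, and TATA letters in 1, 2 and 3. A match is a description of the letters and not evidence of binding.

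Other mitochondrial and metabolic genes were set beside the members. Genes of the mitochondrial ribosome, which translates the subunits encoded in mitochondria, had a median log2 difference of -0.15 at 2 h over 56 genes, with 38 lower. Citric acid cycle genes had -0.07 over 11, with 6 lower, and cytosolic ribosomal proteins -0.08 over 24, with 17 lower. Assembly factors had -0.07 over 11, of which Ndufaf1 and Ndufaf4 are also members. Mitochondrial import and chaperone genes had 0.14 over 20, with 7 lower, and carriers and porins 0.03 over 10, with 5 lower. Genes of pyruvate entry had 0.19 over 7, with 2 lower, and glycolysis genes 0.14 over 13, with 1 lower. Over all tested probe sets the median was -0.01, with 51.2% lower at 2 h. Over the brightest 2412 it was -0.07, with 59% lower. At 1 h the median was above 0 in each of these lists but glycolysis, where it was -0.07. By limma's slope 0 genes of any of these lists were called.

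**Figure D4:**
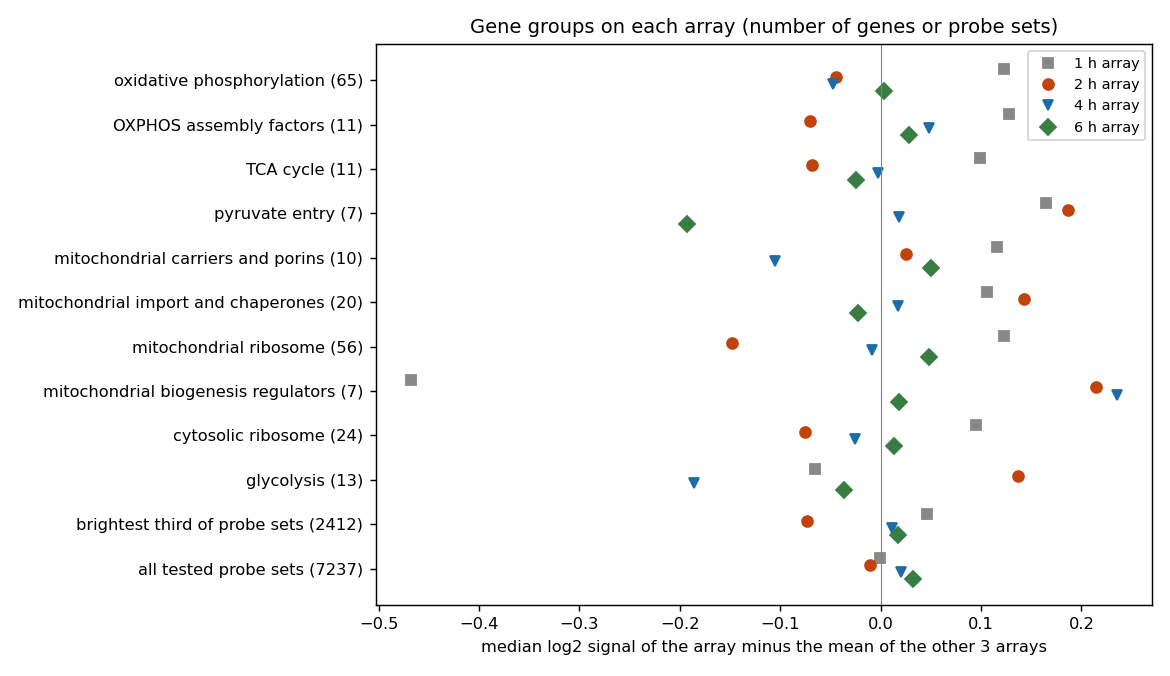
Median log2 signal of each array minus the mean of the other 3 (horizontal axis) for gene groups (vertical axis, with the number of genes or probe sets), with 1 symbol per array. The oxidative phosphorylation genes lie at 0.12 on the 1 h array and between -0.05 and 0.01 on the other arrays, and the regulators of mitochondrial biogenesis have the lowest 1 h median, -0.47.

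Dlst, Vdac2 and Mrpl17 differed more at 2 h than any tested member, by 1.04, -0.90 and -1.14 on the log2 scale. Dlst, a subunit of the 2-oxoglutarate dehydrogenase of the citric acid cycle, had 472, 1031, 498 and 531 at 1, 2, 4 and 6 h. Vdac2, a porin of the outer membrane, had 984, 471, 686 and 1000.3. Mrpl17, a mitochondrial ribosomal protein, had 307, 149.6, 282 and 411. Dlst was high at 2 h, and Vdac2 and Mrpl17 were low. The glycolysis gene Pfkm, the muscle form of phosphofructokinase, had the largest 2 h difference of all these lists, 1.83. Idh3a, a subunit of isocitrate dehydrogenase, had the lowest 2 h difference of the citric acid cycle, -0.48, with signals of 3026, 2204, 3439 and 2794.

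The median of the regulators of mitochondrial biogenesis was low at 1 h, where that of the subunits was high. It was -0.47 at 1 h and 0.21 at 2 h over 7 genes, at a median signal of 237. Dim and bright probe sets also differed in general. The 1 h median was -0.05 in the 10% bin of tested probe sets with a median signal of 244. In the brightest 10% it was 0.07. Ppargc1a, the coactivator PGC-1alpha, had 124, 331, 208 and 155. Esrra, the nuclear receptor that works with it on mitochondrial genes, had 535, 1171, 991 and 655. Gabpa, the DNA-binding subunit of GABP, had 178, 166, 167.5 and 227, and Yy1 had 994, 923, 1415.5 and 1192.5. Ppargc1a and Esrra had their lowest signal at 1 h and their highest at 2 h, while Gabpa and Yy1 had their lowest at 2 h.

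The members' median profile was flat, and the genes nearest to it were of several kinds. Among 5481 tested genes outside the set, the smallest distances on the log2 scale were 0.037 for the proteasome gene Psmb4, 0.043 for Tpt1, 0.044 for the ribosomal gene Rps19, 0.047 for Gad1, which makes GABA in interneurons, and 0.052 for Wdr13. Psmb4 had 4069, 3848, 3828 and 3900.3 at 1, 2, 4 and 6 h. The measure covers 4 arrays only.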

How the data were processed

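The authors deposited 1 intensity per probe set for each of 4 control arrays, on a linear scale. The software behind these intensities was not given in the sources used here. After removal of 2% of values at each end, array means differed by 0.0062% at most, so the deposited intensities were used without further scaling. Values under the pooled 20th percentile (36.8) were set to it, log2 was taken, and the 7237 probe sets with a mean log2 at or above the pooled 40th percentile (116.4) were tested. Symbols came from the platform's annotation, and all 73 members were found in RefSeq's gene table. Each gene was read from its brightest probe set. Trends were fitted with limma as the slope per hour, with a mean-dependent variance prior, 2 residual degrees of freedom, Benjamini-Hochberg adjustment at 0.05 of the two-sided p-values over all tested probe sets. Differences at single hours are descriptions, since each hour has 1 array, and p-values measure only the spread between these arrays. The fitting was checked on simulated data.

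The members, lists and comparisons were chosen with earlier results of these data known. Members named were, in each complex, the 3 lowest and 2 highest at 2 h and the 2 with the smallest range, all Sdh genes, Cyc1 and Cycs, the isoform families of complexes IV and V, all dim members, and those whose second probe set had the opposite sign; other members named, the muscle genes and the genes of other lists beyond the 2 largest differences either way were chosen after their values were seen. No list p-values were computed. The number of arrays limits every value. Alternatives covered scaling, floor, filter, probe set, membership, baseline, fold threshold, time scale, variance prior and leaving out each array; those for the 1 h array and the 1.5-fold range were added after seeing the data. R 4.3.3, limma 3.58.1, Python 3.11.15, pandas 2.3.3, numpy 2.4.6 and matplotlib 3.10.9 were used.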

Additional observations from a re-analysis of the deposited data

How the results depend on the processing

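No paired analysis was possible because each hour had 1 sample. The limma slope called 0 members under every alternative run, including leaving out each array, with smallest adjusted p-values from 0.402 to 0.99998. At 2 h against the mean of the other arrays, quantile normalization turned the median over members to 0.0094 and those of complexes III and V to 0.038 and 0.026. Centring on array medians moved complex I to -0.081 and the members at least 1.5-fold lower to 4. Only plain probe set names moved complex II to 0.25 and turned complexes III and V to 0.030 and 0.0051, with 0 genes at least 1.5-fold lower. Against the 1 h array alone the median was -0.13 over members, -0.0032 over all tested probe sets and -0.098 over the brightest 2412. In complexes I to IV it was -0.12, 0.034, -0.14 and -0.25, with 6 genes at least 1.5-fold lower and 4 higher. At 2-fold both counts were 0. Leaving out the 1, 4 or 6 h array from that mean gave medians of -0.0820 to -0.00380 over members, -0.067 to 0.038 in complex I, 0.072 to 0.15 in complex II, -0.0833 to 0.012 in complex III, -0.14 to -0.054 in complex IV and -0.084 to -0.00380 in complex V, with 1 to 3 genes lower and 2 to 4 higher. Without the 6 h array 3 genes were lower, and without the 4 h array 4 were higher. No share of all tested probe sets is given for the 1.5-fold counts under these alternatives, so they are not results about the members. The median difference of the 1 h array from the others was 0.064 after quantile normalization and 0.17 after centring on medians, where 25 and 39 of 65 members were highest at 1 h (24.8% and 27.4% of all tested probe sets), and 0.10 to 0.14 with an array left out, where 34 to 40 were (30.9% to 32.7% of all tested probe sets; 10 to 11 of 13 in complex V, and 53 to 61 of 65 within a 1.5-fold range). The cause of these changes was not tested. Of 823 values of single members, 759 moved by less than the SD over the 1, 4 and 6 h arrays. Many of these values could not have moved, so the count does not measure robustness. Changes of floor, filter and membership left the values of tested members as they were. The mean of all probe sets could not change a gene with 1 probe set. Another sign was found in 52 values of 28 members, among them Atp5d at 0.41 with only plain names, Cox8b at -0.35 and Ndufb2 at 0.036 with the mean of all probe sets, and Atp5pb at -0.21 without the 6 h array. Counting Ndufa4 with complex IV was not run, since Ndufa4 is not analysed here. With 1 array per hour, differences between arrays and between hours cannot be told apart.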
